A study of Schizosaccharomyces pombe with 8 samples.

Results

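The response of M cells to P-factor at 4 and 6 h was measured on 2 of the 8 arrays of the series, those labelled as P-factor 4 h and 6 h treatment of h- cyr1 sxa2 cells (sax2 in the labels). These were 2-colour cDNA arrays of Schizosaccharomyces pombe, 1 per time point. The strain carried h-, a deletion of the silent mat2,3 cassettes with LEU2, cyr1::ura4+, ura4-D18 and sxa2, and it grew in MSL minimal medium with nitrogen. P-factor was added to 1 μg/ml, and RNA of each time was set against the 0 h RNA of the same culture, so the treated and the untreated RNA came from 1 genotype and all P-factor arrays shared their reference. The other arrays were P-factor 2 h in the same M cells, M-factor 2, 4 and 6 h in P cells (h+, with its own cassette deletion marked by LEU2, cyr1::ura4+ and ura4-D18), and M cells over P cells before treatment and after 6 h. The cassette deletion keeps cells in 1 mating type. A single strain stood for each cell type, and nothing in the labels gives a second culture. Treated RNA was in the Cy3 channel on every P-factor array and 0 h RNA in the Cy5 channel, so a dye effect and the treatment cannot be told apart for a single gene.

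P-factor is a peptide secreted by P cells. It binds Mam2, a G protein-coupled receptor on M cells, and signals through the Gα subunit Gpa1, Ras1 and the kinases Byr2, Byr1 and Spk1 to the HMG-box transcription factor Ste11. Ste11 binds a short AT-rich box in front of genes for mating and meiosis, and pheromone also stops the cell cycle in G1. Wild type cells respond only when starved of nitrogen, whereas cells without the adenylate cyclase Cyr1 respond in its presence. Sxa2 is a carboxypeptidase that degrades P-factor, and the sxa2 mutation lets the added peptide persist.

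The study's supplementary list gives putative Ste11 boxes upstream of its pheromone-induced genes, each the best match of its gene to a matrix of known sites. Binding at them was not measured here. Some are shown here because they lie in front of genes with large and intermediate ratios at 4 and 6 h and in front of genes of M cells. Capitals mark the 10-base box, each site is written in the orientation nearest to the most frequent box of the list, and no genome was used here, so positions are not given. For mam1 and mam3 the study's alignment of M-specific promoters shows other sites than those printed here. The first 6 hold that box, referred to as the full box, and the last 6 differ from it by 1 or 2 bases.
dni2: ttgaAACAAAGAAAtttt
dhc1: gcggAACAAAGAAAtcta
fus1: accgAACAAAGAAAgtta
rep1: gtaaAACAAAGAAAggat
mei2: aacaAACAAAGAAAagag
ste11: ttgcAACAAAGAAAcaac
bdf1: cttgAACAAAGTAAacaa
mam3: atgaAACAAAGGAAgttg
mam1: atatAACAAAGGAActaa
sxa2: gggcAACAAAGACAccca
mam2: tctaAACAAAGAGGaatt
SPAC11H11.03c: tctaAACAAAGAGGaatt
The mam2 and SPAC11H11.03c sites are the same 18 bases read from opposite strands. Beside this shared site, mam2 had log2 ratios of 5.33 at 4 h and 4.79 at 6 h, and SPAC11H11.03c had 1.83 and 1.93. Of 161 listed sites, 34 had the full box, 67 differed from it by 1 base, 55 by 2 and 5 by 3. At least 2-fold increases on both arrays were seen at the genes of 25 of the 31 measured sites with the full box, 56 of 66 with 1 difference and 38 of 53 with 2. The medians of their mean log2 ratios were 1.99, 2.10 and 1.52. The list was chosen for induction on these arrays, so these counts describe it and are not independent evidence on the box.

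Of the 4752 genes named on the array, 4499 had a value at both times, 14 at 4 h only, 100 at 6 h only and 139 at neither. A log2 ratio of 1 is a 2-fold increase over 0 h. On both arrays 197 genes were at least 2-fold higher (4.38% of those measured) and 186 at least 2-fold lower (4.13%), and 0 genes were past 2-fold in opposite directions. On the 4 h array alone 326 genes were higher (7.22%) and 332 lower (7.36%), and on the 6 h array alone 262 were higher (5.7%) and 239 lower (5.2%). Among genes measured at both times, 128 passed 2-fold upwards only at 4 h and 57 only at 6 h, and 140 passed it downwards only at 4 h and 52 only at 6 h. The ratios of the 2 arrays lay within 2-fold of each other for 98.8% of genes and within 1.5-fold for 92.8%, with a median absolute difference of 0.20 on the log2 scale. Both arrays share the 0 h RNA, and most genes lay near 0, so these shares describe the arrays and are no test. Of 325 genes at least 2-fold higher at 4 h and measured at 6 h 197 passed at 6 h, and of 326 lower 186 did. In a whole culture, fewer responding cells and less RNA per cell cannot be told apart.

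**Figure D1:**
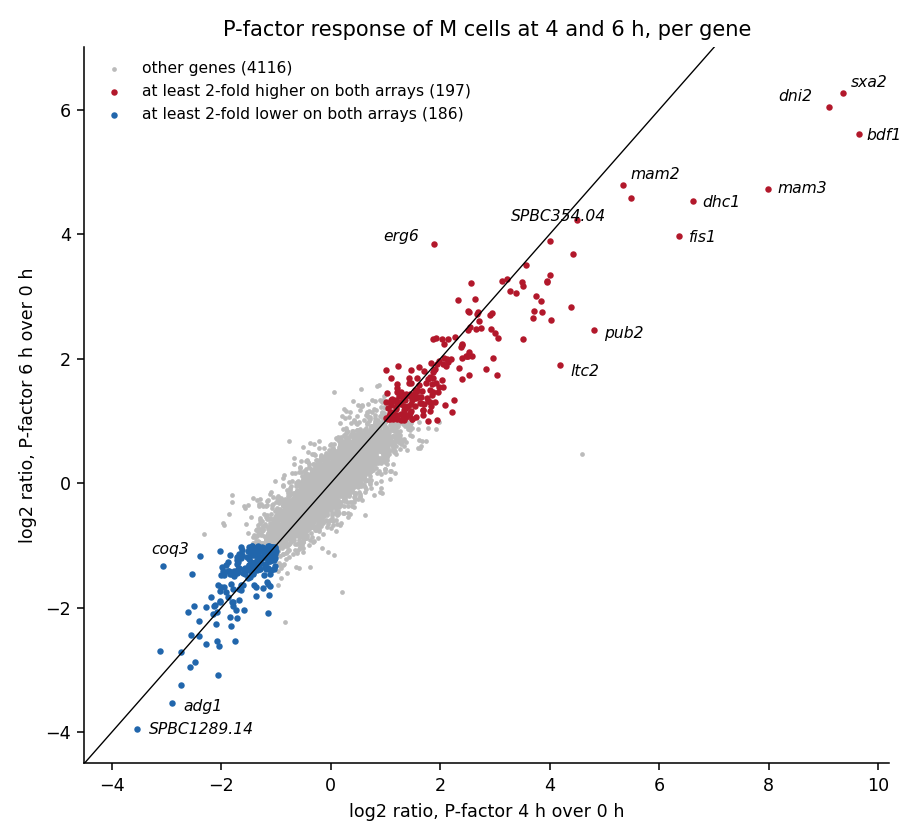
Each point is 1 of 4499 genes, with its log2 ratio over 0 h at 4 h of P-factor (horizontal) and at 6 h (vertical); the line marks equal ratios. Most of the 197 genes at least 2-fold higher and the 186 at least 2-fold lower on both arrays lie near the line. Among those off it, sxa2, bdf1, dni2, mam3, fis1, dhc1, pub2 and ltc2 had larger ratios at 4 h than at 6 h, and coq3 was lower at 4 h.

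The mean of both arrays was tested against 0 with limma, fitted to the P-factor and M-factor arrays of 4 and 6 h with 1 mean per pheromone and a shared spread. Of 4495 genes tested, 709 rose (15.8%) and 703 fell (15.6%) at an adjusted p of at most 0.05, including 196 of the 197 genes at least 2-fold higher and 182 of the 185 tested genes at least 2-fold lower. The standard error of a mean had a median of 0.18 on the log2 scale. Time points of 1 culture stand in for replicates, so these p-values measure only the spread between arrays, and an error in the 0 h RNA would enter both arrays alike. Without the 4 h array 80 of 4590 genes rose and 32 fell, and without the 6 h array 128 of 4506 rose and 65 fell. Counts of called members are given with each gene group, where "without either array" means with each of the 2 left out in turn. Counts from all arrays read against the 15.8% and 15.6% of all genes. Counts with an array left out read against the far smaller numbers of all genes called in that setting, so few or 0 calls are common there. In that setting 1 P-factor array is left and the spread comes only from the 2 M-factor arrays. Lost calls therefore do not measure how well the P-factor arrays agree. A one-sample t-test, the kind the study names, has 1 degree of freedom on the 2 P-factor arrays, so few genes could pass adjustment. It called 0 genes after adjustment, and 394 higher and 443 lower at an unadjusted p of at most 0.05.

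Among the 197 genes at least 2-fold higher, 62 were at least 4-fold and 21 at least 8-fold higher on both arrays. Of the 186 lower genes, 18 were at least 4-fold lower on both. The 197 had a median log2 ratio of 1.81 at 4 h and of 1.6 at 6 h, and 143 of them were higher at 4 h than at 6 h. The 186 had medians of -1.49 at 4 h and -1.36 at 6 h.

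Among genes past 2-fold on both arrays, the highest mean was that of sxa2, the gene of the P-factor protease itself. It is mutated in this strain, but its transcript was still measured. Its log2 ratios were 9.36 at 4 h and 6.27 at 6 h, a mean of 7.82 ± 0.61, or 225-fold (SE, limma adjusted p = 0.000709). The spread behind this SE and p-value is shared with the M-factor arrays, where the sxa2 values lay close together, and is moderated across genes. The SE is therefore smaller than the P-factor values 9.36 and 6.27 alone would give. The means of bdf1 (7.62) and dni2 (7.57) lay within even this SE of the sxa2 mean, so the order of these genes is not settled. dni2, a claudin-like membrane protein of cell fusion, had 9.10 and 6.05, and bdf1, a bromodomain protein, had 9.65 and 5.60. mam3, the agglutinin of M cells, had 7.99 and 4.72. dhc1, the dynein heavy chain, had 6.61 and 4.54, and fis1 had 6.36 and 3.97. mam2, the P-factor receptor, had 5.33 and 4.79, SPBC354.04 had 5.49 and 4.58, dni1, a partner of dni2 in fusion, had 4.50 and 4.23, and aim21 had 4.43 and 3.68. These 10 genes had the highest means among those past 2-fold on both arrays, and all 10 were higher at 4 h than at 6 h.

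The excess at 4 h of the strongest genes came mostly from 1 of their 2 spots. For sxa2 the first spot read 6.07 at 4 h and 5.83 at 6 h, and the second spot 12.65 and 6.71. For dni2 the first spot read 5.66 and 6.11, and the second 12.54 and 5.98. For mam3 the first spot read 5.0 and 4.49, and the second 10.98 and 4.95. For fis1 the first spot read 3.92 and 3.74, and the second 8.79 and 4.2. Thus the first spots of these genes differed little between the times, and the second spots were far above them at 4 h. At 2 h the order was the other way for sxa2, with 11.55 on the first spot and 5.18 on the second. The spots of dhc1 read 4.82 and 8.40 at 4 h and 5.31 and 3.76 at 6 h, so the first spot was higher at 6 h. Those of SPBC354.04 read 7.26 and 3.72 at 4 h and 2.96 and 6.20 at 6 h. Of 33 genes with 2 spots and a mean above 3 at 4 h, 24 had the higher value on the second spot, with a median of 1.09 for second minus first, and 12 had spots more than 2 apart. At 6 h, 23 genes lay above 3, with a median of 0.24 and 1 gene whose spots were more than 2 apart. Above a log2 ratio of 8 the 4 h array held 7 spots of 7 genes (bdf1, dhc1, dni2, fis1, mam3, sec18 and sxa2), the 6 h array 0 and the 2 h array 3. The high sec18 spot at 4 h read 8.39 beside 0.79 on its partner. The source of these values was not tested, and fold changes of the strongest genes at 4 h are therefore less certain than their direction.

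**Figure D2:**
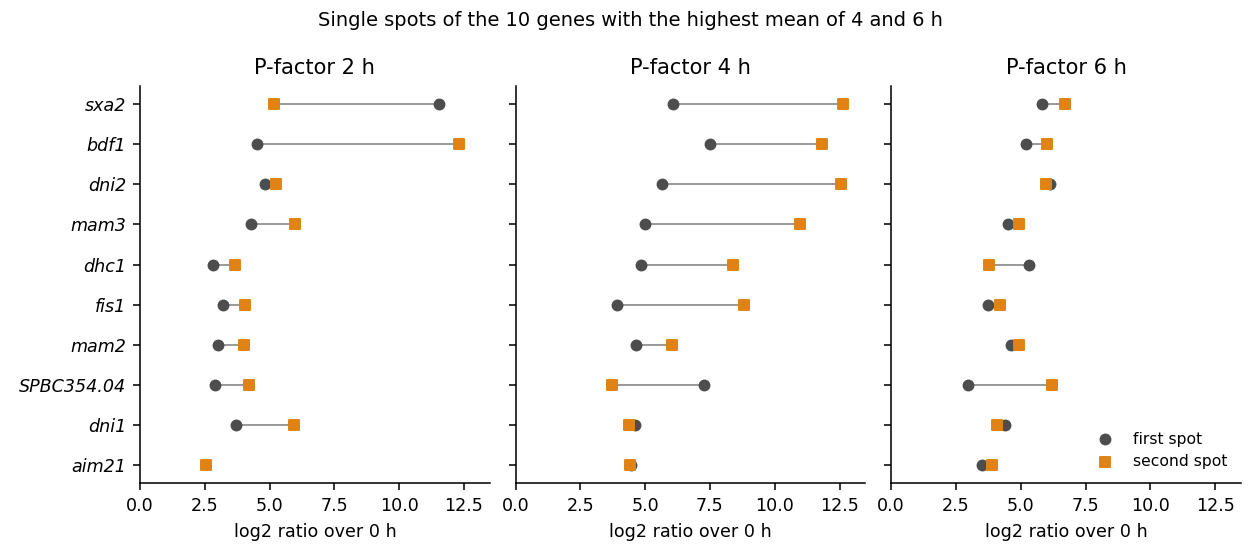
Log2 ratios over 0 h of both spots of the 10 genes with the highest mean of 4 and 6 h, on the P-factor 2, 4 and 6 h arrays; circles are first spots, squares second spots and lines join spots of 1 gene. Second spots of sxa2, dni2 and mam3 lie between 10.98 and 12.65 at 4 h, and spots of these 3 genes lie between 4.49 and 6.71 at 6 h.

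The products that make M cells able to mate formed the most strongly raised list. All 7 of its members on the array rose, also without either array, and were at least 2-fold higher on both arrays, with a median mean of 3.36, against -0.01 over all genes; the M-factor genes mfm1, mfm2 and mfm3 were not on the array. Beside sxa2, mam3 and mam2, the list held mam1, the transporter that exports M-factor, with 3.49 at 4 h and 3.24 at 6 h. cwp1, a subunit of a prenyltransferase, had 2.40 and 2.01, mam4, the methyltransferase that completes M-factor, had 1.92 and 2.33, and SPAC11H11.03c had 1.83 and 1.93. The genes mam3, cwp1 and SPAC11H11.03c are in the list because the study picked them from the same RNAs as specific to M cells, so their rise is not independent evidence on the list.

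Genes of P cells had smaller ratios than the M cell genes on these arrays. Of 6 members 4 rose, 0 of them without either array, and 0 were 2-fold higher on both arrays. sxa1, an aspartyl protease gene, had 1.19 at 4 h and 0.96 at 6 h. map4, the agglutinin of P cells, had 1.26 and 0.66, and SPAC1565.03 had 0.98 and 0.93. map1, a MADS-box factor needed for P cell genes and also acting in M cells, had 0.48 and 0.96. The P-factor gene map2 had 0.92 and 0.14, and the M-factor receptor gene map3 had 0.10 and -0.03, and neither was called. With M-factor in P cells map3 was not raised on the M-factor arrays either (-0.61 at 4 h and -0.09 at 6 h). The arrays of M over P cells read otherwise, with -1.23 for map3 in untreated cells and -3.53 after 6 h. The study reports map3 as selectively induced by M-factor on its arrays, and map3 and map4 as P-specific by real-time PCR. The flat M-factor ratio of map3 is thus in doubt, and the reason was not tested. The M-factor values of map4 (0.82 and 0.72) and sxa1 (1.54 and 1.19) were near those with P-factor. Those of map1 (1.09 and 1.78), map2 and SPAC1565.03 were higher.

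Of 16 genes of the signalling pathway, 9 rose (5 without either array) and 0 fell, and 6 were at least 2-fold higher on both arrays. Those 6 were rgs1, which encodes the regulator that shuts off Gpa1 (3.94 at 4 h and 3.24 at 6 h), the MAP kinase gene spk1 (2.68 and 2.72), ste7 (2.27 and 2.34), ste11 itself (1.95 and 1.91), the Ras GTPase-activating protein gene gap1 (1.87 and 1.69) and the Byr2 adaptor gene ste4 (1.28 and 1.28). The raised genes therefore included both activators of the pathway and the negative regulators rgs1 and gap1. gpa1 had 0.66 and 1.14, ras1 0.77 and 0.60 and byr1 0.70 and 0.66, which were called but were not 2-fold on both arrays. byr2, at 0.35 and 0.09, and the Ras1 exchange factor gene ste6, at -0.65 and -0.47, were not called. The list's median was 0.68. cyr1, the disrupted gene, had no value on any P-factor array. Of 11 tested genes of cAMP and glucose signalling 2 rose (0 without either array), a share near that of all genes, with gpa2 at 0.86 and 0.88 and the phosphodiesterase gene cgs2 at 0.95 and 0.76.

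Of 11 genes of cell and nuclear fusion, 9 rose (5 if the 4 h array was left out, 7 if the 6 h array was) and 6 were at least 2-fold higher on both arrays, with a median of 1.52. Beside dni1 and dni2, tht1, which acts in nuclear fusion, had 4.40 at 4 h and 2.83 at 6 h. The formin gene fus1 had 3.95 and 3.23, and prm1, for a protein of plasma membrane fusion, had 3.83 and 2.92. The myosin light chain gene rlc1 had 1.65 and 1.39. The kinesin gene klp2, at 0.67 and 0.46, was not called.

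Regulators of meiotic entry were raised in part in this medium with nitrogen, and 4 of those tested were not called. Of 12 tested, 7 rose (2 if the 4 h array was left out, 3 if the 6 h array was) and 1 fell (0 without either), and 5 were at least 2-fold higher on both arrays. rep1, a zinc-finger activator of the G1/S programme, had 3.22 at 4 h and 3.28 at 6 h. mei2, the RNA-binding protein that commits cells to meiosis, had 2.65 and 2.47, mei4, a forkhead factor of middle meiosis, had 2.26 and 1.33, and mei3, which inhibits the Pat1 kinase, had 1.33 and 1.17. The gene of that kinase, pat1, rose as well, with 0.89 and 0.63. atf21 fell, with -1.15 and -1.08.

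Of 28 recombination genes, 17 rose (5 if the 4 h array was left out, 9 if the 6 h array was) and 1 fell (0 without either), and 10 were at least 2-fold higher on both arrays, with a median of 0.95. Among genes of the linear elements, which order meiotic chromosomes in this yeast, rec27 had 4.02 at 4 h and 2.62 at 6 h, rec25 had 3.38 and 3.05, rec10 had 2.33 and 2.94 and hop1 had 0.93 and 1.31. dmc1, the meiotic strand exchange protein, had 2.75 and 2.49, the kinase gene mek1 had 2.48 and 2.05, and rec12, whose product makes meiotic DNA breaks, had 1.78 and 1.68. Of the genes whose products act with Rec12, rec15 fell (-1.13 and -0.75), and rec6 (0.08 and -0.15) and rec7 (-0.44 and -0.21) were not called. The meiotic cohesin gene rec8, at -0.67 and 0.31, was not called either.

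Of 17 genes for the movement of the nucleus and the clustering of telomeres, 9 rose (5 if the 4 h array was left out, 8 if the 6 h array was). The 2 that fell (0 without either array) are a smaller share than that of all genes. The dynein genes dhc1, dic1 (2.57 at 4 h and 2.04 at 6 h) and dli1 (1.47 and 1.82), the dynactin gene ssm4 (2.83 and 1.84) and num1, the cortical anchor of dynein (4.0 and 3.9), were at least 2-fold higher on both arrays, as were bqt1 (1.93 and 1.61) and kms1 (1.64 and 1.29). The telomere protein gene taz1 (-0.55 and -0.68) and the light chain gene dlc1 (-0.65 and -0.66) fell, and bqt2, at 0.33 and -0.05, was not called. Among 17 spore formation genes 3 rose and 1 fell (0 and 0 without either array), and 0 were 2-fold on both arrays.

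Genes of the G1/S programme, driven by the MBF factor, rose in part. Of 23, 11 rose (4 if the 4 h array was left out, 3 if the 6 h array was) and 0 fell, and 7 were at least 2-fold higher on both arrays. The cyclin gene cig2 had 2.52 at 4 h and 2.74 at 6 h, mik1, a kinase that restrains Cdc2, had 2.40 and 2.22, and cdc22, the large subunit of ribonucleotide reductase, had 1.43 and 1.69. The replication initiator gene cdc18, at -0.15 and -0.11, and cdt1, at 0.41 and -0.04, were not called. Of 16 mitosis genes 0 rose, and slp1, an activator of the anaphase-promoting complex, was the 1 that fell (-1.36 and -1.80), a call that was lost if the 6 h array was left out.

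**Figure D3:**
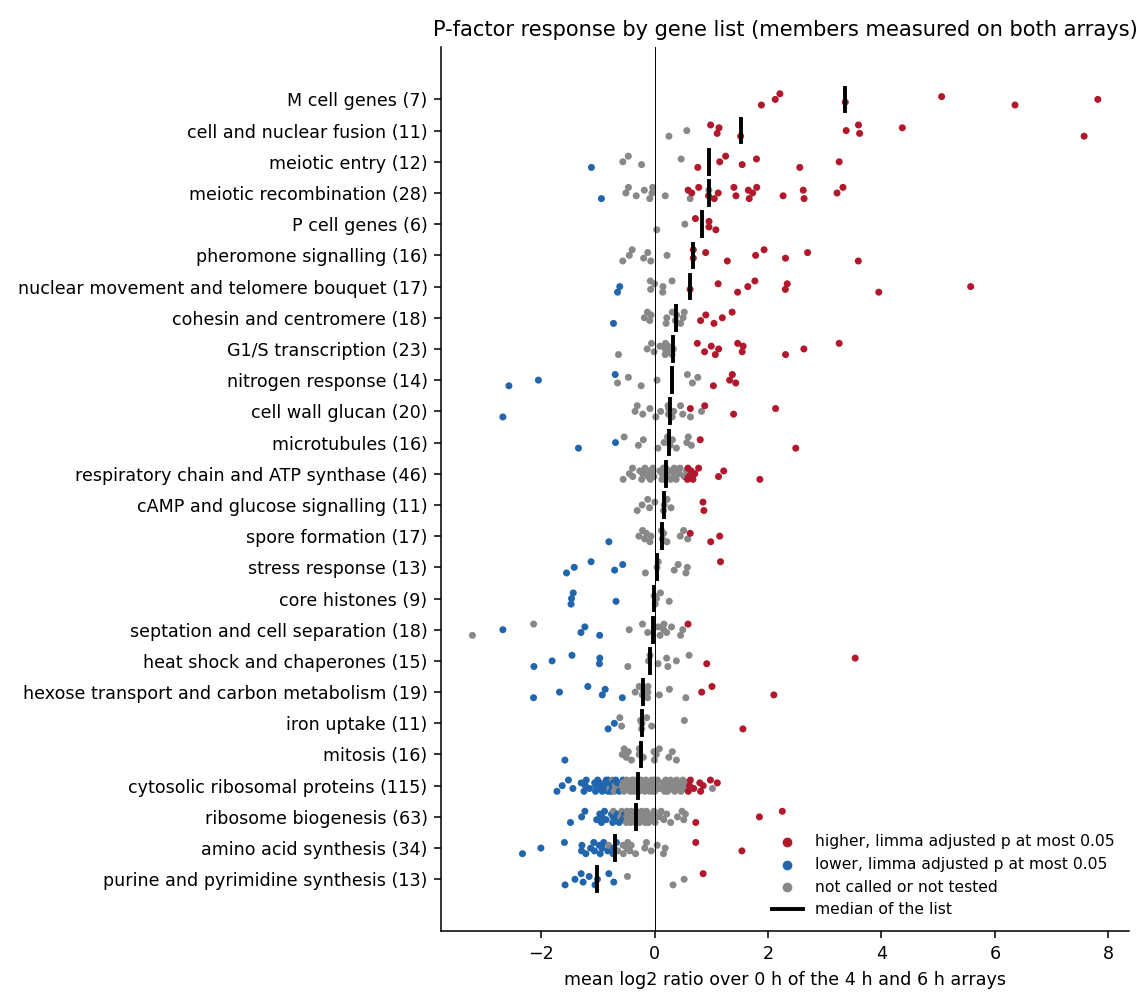
Each point is 1 gene, placed by its mean log2 ratio of the 4 h and 6 h arrays over 0 h, in lists ordered by their median (black bar), with the number of members measured on both arrays in brackets. Red and blue mark genes that rose or fell by limma, adjusted p at most 0.05; M cell genes have the highest median, 3.36, and purine and pyrimidine synthesis the lowest, -1.01.

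On the falling side, the 10 genes with the lowest means were SPBC1289.14, adg1, wwm2, SPAC750.08c, SPBC8E4.03, aat1, eng1, put4, SPCC297.05 and cfh4. SPBC1289.14 had log2 ratios of -3.53 at 4 h and -3.94 at 6 h, a mean of -3.74 ± 0.21 (SE, limma adjusted p = 0.00047), and its 4 spot readings lay between -4.08 and -3.22. wwm2 had -2.73 and -3.24, and SPAC750.08c had -3.12 and -2.69. aat1, an amino acid transporter, had -2.74 and -2.70, and put4 had -2.06 and -3.08. SPCC297.05 had -2.56 and -2.44 but was not called (limma adjusted p = 0.155), where its M-factor values of 4.36 at 4 h and -1.98 at 6 h enter the spread. adg1 was not tested, because both of its spots were at the floor, a ratio of 0.01, at 6 h of M-factor and were taken as missing.

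Many biosynthetic genes had modest decreases. Of 34 genes of amino acid synthesis, 17 fell (0 if the 4 h array was left out, 2 if the 6 h array was) and 2 rose, with a median of -0.70, and 6 were at least 2-fold lower on both arrays. lys12, of lysine synthesis, had -2.60 at 4 h and -2.06 at 6 h, ilv1 had -2.19 and -1.83, trp1, of tryptophan synthesis, had -1.77 and -1.42, and arg5 had -1.45 and -1.13. his2 was an exception, with 1.58 and 1.49. Of 13 genes of purine and pyrimidine synthesis, 9 fell (0 if the 4 h array was left out, 3 if the 6 h array was) and 1 rose, with a median of -1.01. ade10 had -1.72 and -1.45, ade1 -1.49 and -1.32 and ade3 -1.35 and -1.25; ura4, at -1.01 and -1.10, is also the marker inserted at cyr1. The glutamine synthetase gene gln1 fell too, with -2.13 and -1.97. Of 114 cytosolic ribosomal protein genes, 32 fell (0 if the 4 h array was left out, 2 if the 6 h array was) and 9 rose (0 without either), with a median of -0.30, and of 63 ribosome biogenesis genes 17 fell (0 without either array) and 3 rose (2 without either), with a median of -0.33. Near-identical ribosomal protein and histone copies may share signal on these probes.

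Of 15 chaperone genes 5 fell (1 if the 4 h array was left out, 0 if the 6 h array was), and the 2 that rose are a share near that of all genes. The mitochondrial chaperonin genes hsp10 (-2.16 at 4 h and -2.10 at 6 h) and mcp60 (-1.23 and -1.69) and the Hsp70 gene ssa1 (-1.58 and -2.04) fell, whereas sti1, an Hsp90 co-chaperone, rose, with 3.57 and 3.50. The catalase gene ctt1 had -2.02 and -1.09. pyk1, pyruvate kinase, had -2.28 and -1.99, and the hexose transporter gene ght2 had -1.64 and -1.72. gut2, of glycerol metabolism, rose, with 2.20 and 2.00. Of 9 core histone genes, 4 fell (0 without either array) and 0 rose, with hhf1 at -1.57 and -1.36, hhf3 at -1.56 and -1.39 and hta2 at -1.41 and -1.46. Among 14 nitrogen response genes 4 rose (0 without either array) and 3 fell (1 without either array). atg8, of autophagy, had 1.25 and 1.39, and the protease genes isp6 and psp3 had 1.32 and 1.41, and 1.45 and 1.41. Of 46 genes of the respiratory chain 10 rose (0 without either array) and 0 fell. cox6, with the highest mean of them, had 1.89 and 1.82, but its spots read 3.33 and 0.45 at 4 h and 1.94 and 1.70 at 6 h. In the remaining lists few calls held without an array. Of 18 cohesin and centromere genes 5 rose (0 if the 4 h array was left out, 1 if the 6 h array was) and 1 fell (0 without either). Of 20 cell wall glucan genes 4 rose (0 if the 4 h array was left out, 2 if the 6 h array was) and 1 fell (1 without either). Of 16 microtubule genes 2 rose (1 without either) and 2 fell (0 without either). Of 13 stress genes 1 rose (0 without either) and 5 fell (0 if the 4 h array was left out, 2 if the 6 h array was). Of 19 genes of hexose transport and carbon metabolism 3 rose (1 without either) and 6 fell (2 if the 4 h array was left out, 3 if the 6 h array was). Of 11 iron uptake genes 1 rose (0 if the 6 h array was left out) and 2 fell (0 without either).

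The 2 h array was made with the same 0 h RNA, so its values are set beside those of 4 and 6 h as a description only. Both spots of a pair had a value for 2464 pairs at 2 h, against 4195 at 4 h and 4505 at 6 h. The genes at least 2-fold higher at both later times had a median of 1.33 at 2 h, where 189 were measured and 133 were at least 2-fold higher (5.45% of all genes were). The genes at least 2-fold lower at both later times had a median of -1.02 at 2 h, where 179 were measured and 96 were at least 2-fold lower (4.89% of all genes were). Within 1.5-fold of 0 h at 2 h were 23 of the raised and 32 of the lowered genes. In limma's test of the 4 and 6 h arrays against the 2 h array, 0 of 4093 genes were higher and 1 was lower (0.0244%), and 184 and 103 were so at an unadjusted p of at most 0.05. The 1 gene was chr4, with 5.40 at 2 h, 0.64 at 4 h and 0.41 at 6 h, and it rested on 1 spot, which read 9.55 at 2 h beside 1.24 on its partner.

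Some genes, chosen after their values were seen, were near 0 at 2 h and low later, and several act in cell separation, the step at which daughter cells dissolve the septum. eng1, the septum endoglucanase, had -0.26 at 2 h, -2.48 at 4 h and -2.88 at 6 h. adg1, a glycoprotein gene controlled with it, had -0.73, -2.90 and -3.53, adg2 had 0.32, -1.74 and -2.53, and cfh4, a relative of chitin synthase regulators, had -0.25, -2.29 and -2.58. mid2, a septum protein that organises septins, had 0.04, -0.96 and -1.64, and slp1 had -0.05, -1.36 and -1.80. SPCC306.11 had 0.22, -2.08 and -2.07. The 2 h values of adg2 and mid2 rest on 1 spot each. All 7 were lower at 4 h than at 2 h, and only SPCC306.11 was not lower still at 6 h. In the late test eng1, cfh4 and SPCC306.11 had a limma adjusted p of 0.107, so none of the 3 passed. Other genes of cell separation did not follow, as with agn1 (0.33, 0.77 and 0.22) and adg3 (-0.07, 0.44 and 0.15). Of 17 tested genes of septation, 4 fell (eng1, mid2, the formin gene cdc12 and cdc15; 1 without either array) and 1 rose. adg2 was not called (limma adjusted p = 0.0606), with M-factor 4 h spots of -5.73 and 4.57. Among late rises, hmg1, the HMG-CoA reductase gene of sterol synthesis, had -0.12 at 2 h, 2.50 at 4 h and 2.77 at 6 h.

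**Figure D4:**
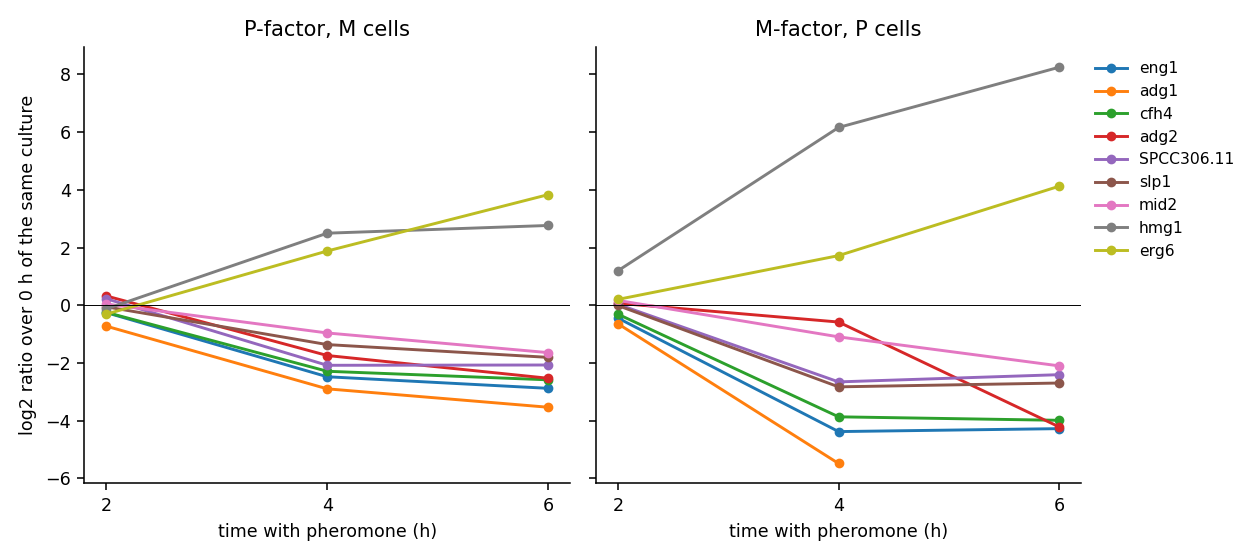
Log2 ratio over 0 h of the same culture against time with pheromone (h) for 9 genes, in M cells with P-factor (left) and in P cells with M-factor (right); each point is the mean of the spots on 1 array. The 7 falling genes lie between -0.73 and 0.32 at 2 h of P-factor and between -3.53 and -1.64 at 6 h, and adg1 is not drawn at 6 h of M-factor, where both of its spots were at the floor ratio of 0.01.

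Few genes changed between 4 and 6 h. Every spot was at least 2-fold higher at 6 h for 9 of 4153 genes with 2 or more spots at both times (0.217%) and at least 2-fold lower for 3 (0.0722%). By the mean of the spots 4 h was the highest time for bdf1 (8.41, 9.65 and 5.60 in order of time) and for SPAC4G9.19 (2.47, 3.03 and 1.73). The first bdf1 spot read 4.51, 7.48 and 5.20 and the second 12.31, 11.82 and 6.00, so only the first was highest at 4 h. A trough at 4 h was seen for coq3 of ubiquinone synthesis (-1.98, -3.06 and -1.33), tup11, a co-repressor gene (-1.27, -2.32 and -0.82), the glycerol dehydrogenase gene gld1 (-0.52, -1.86 and -0.50), rmr1 (-1.48, -1.97 and -0.64), the kinase gene prp4 (-1.08, -1.95 and -0.66) and ddr48 (-1.55, -2.39 and -1.17). Both spots of these genes had to move at least 2-fold the same way to enter the class, so their agreement is no added support. In tup11 they differed between the times by 1.49 each. Still rising at 6 h was erg6, the sterol methyltransferase, with -0.30 at 2 h, 1.88 at 4 h and 3.83 at 6 h. Its spots read 3.69 and 3.98 at 6 h. The 2 h values of erg6, gld1, rmr1 and prp4 rest on 1 spot each. knh1 was over 2-fold lower at 6 h than at 4 h on both spots, with means of -0.71, 0.06 and -1.15 in order of time. The remaining 2 genes higher at 6 h, tna1 (-1.01, -0.76 and 0.67) and the metallothionein gene zym1 (-1.52, -1.42 and -0.24), stayed within 2-fold of 0 h at 6 h. These classes rest on 1 array per time, so the difference between 4 and 6 h has no test.

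At the lowest ratio, 0.01, the 4 h array held 72 spots, and 0 of them had a gene name. They lay at the same 3 positions in 24 of the 48 blocks of 240 spots, all with 1 shared value. The same 72 spots had no value on the P-factor 2 and 6 h arrays, and a single shared log2 ratio of -2.46 at 4 h of M-factor, -0.08 in untreated M over P cells and 0.34 after 6 h. The files do not say what these spots are. On the 4 h array 36 values were shared by 3 or more spots, over 1243 spots of which 0 were named. The floor thus touched 0 named genes, and the lowest named gene at 4 h was SPBC1289.14 at -3.53.

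P cells treated with M-factor share no RNA with these arrays and give the values of the same genes with the other pheromone. Pheromone, cell type and the sxa2 allele differ together between the courses and cannot be told apart. Of the 197 genes raised by P-factor, 122 were also at least 2-fold higher on both M-factor arrays (61.9%, where 5.92% of all genes were), which is 45.9% of the 266 raised by M-factor. The M-factor mean was above 0 for 192 of them, or 97.5%, against 50.1% of all genes, with a median of 1.66. Of 185 lowered genes, 79 were also lower on both M-factor arrays (42.7%, where 4.34% of all genes were), which is 40.5% of the 195 lowered by M-factor, and 177 had means below 0.

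The difference itself was tested with limma. It was called for 49 genes, with 25 higher with P-factor (0.556%) and 24 lower (0.534%), at an adjusted p of at most 0.05. Of the 7 measured M cell genes, 5 were higher with P-factor. That count is not independent evidence, since cwp1 and SPAC11H11.03c, like SPAC1565.03 of the P cell list, were listed because the study picked them by such a difference in the same RNAs. The values of sxa2 were 9.36 and 6.27 with P-factor against 0.06 and 0.40 with M-factor, mam2 had 5.33 and 4.79 against 0.34 and -0.57, and mam1 had 3.49 and 3.24 against 0.84 and 1.32. cwp1 had 2.40 and 2.01 against 0.64 and 0.10, and SPAC11H11.03c had 1.83 and 1.93 against 0.13 and -0.04. The mam3 values, 7.99 and 4.72 against 1.79 and 2.05, and those of mam4, 1.92 and 2.33 against 1.36 and 1.73, gave no call. Outside this list, htr11 had 2.92 and 2.71 with P-factor against 0.71 and -0.17 with M-factor. Lower with P-factor were the P cell genes SPAC1565.03 (0.98 and 0.93 against 5.67 and 5.31) and map2 (0.92 and 0.14 against 3.08 and 3.28), and csr103 (1.76 and 1.36 against 5.48 and 5.08), mug37 (0.67 and 1.09 against 3.16 and 3.74), rsm1 (1.54 and 1.5 against 4.90 and 4.74) and hmg1 (2.50 and 2.77 against 6.16 and 8.25). Without the P-factor 4 h array 5 genes differed and without the 6 h array 10, whereas without the M-factor 4 h array 636 did and without the M-factor 6 h array 1147.

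**Figure D5:**
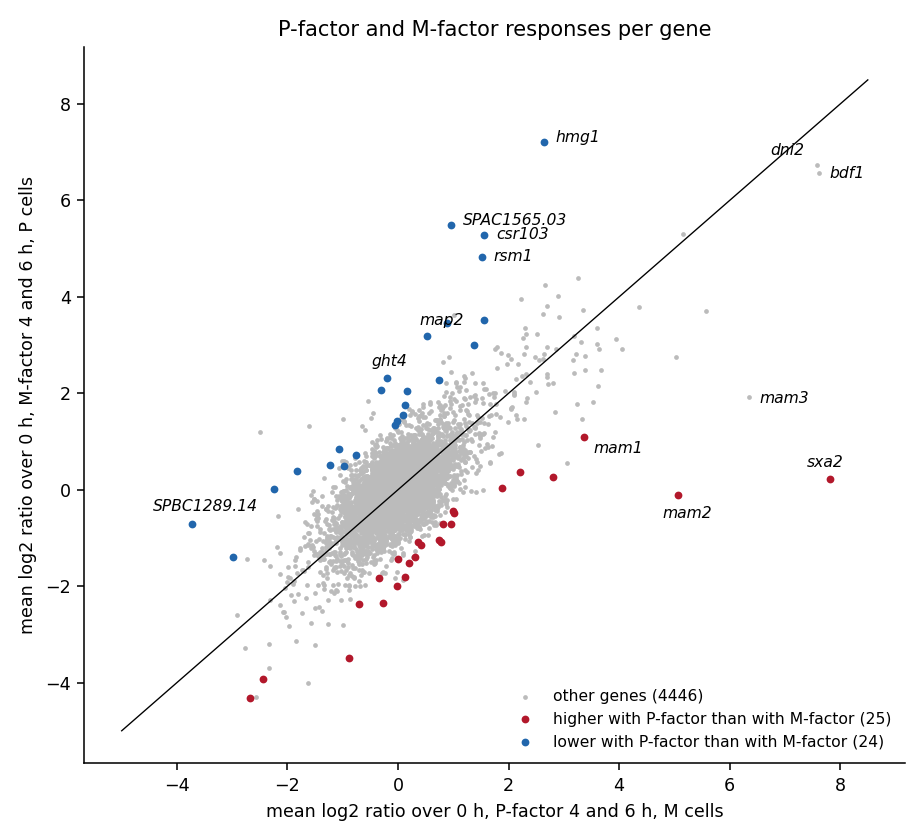
Each point is 1 of 4495 genes, with its mean log2 ratio over 0 h at 4 and 6 h of P-factor in M cells (horizontal) and of M-factor in P cells (vertical); the line marks equal means. Red and blue mark the 25 genes higher and the 24 lower with P-factor, limma adjusted p at most 0.05; sxa2 and mam2 lie far to the right, and hmg1 and SPAC1565.03 far above the line.

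The arrays of M over P cells set the 6 h RNAs and the untreated RNAs of both cultures against each other directly. They share these RNAs with the courses, so their values only stand beside the course values. Their direction, M over P, follows the channels in the labels, although a column of the study's table names the same ratios the other way round, and the 6 h array is read as natural log, which is likely but not settled. SPAC1565.03 had log2 ratios of -2.89 after 6 h and -0.59 in untreated cells, sxa2 had 2.20 and 0.23, and mam2 had 3.05 and 1.65. hmg1 was 0.22 on both arrays, and rsm1 was 0.09 after 6 h and 0.34 in untreated cells, where the courses differed by -4.58 for hmg1 and -3.30 for rsm1. mam1 had 2.09 after 6 h and 2.15 in untreated cells, htr11 had 0.26 and 0.68, and map2 had -3.12 and -2.94, where the courses differed by 2.28, 2.54 and -2.65. Of the 49 genes, 35 changed by less than 1.5-fold between the direct arrays, these 5 among them. Over 4597 genes the 6 h difference between the courses and the change between the direct arrays deviated by a median of 0.35 on the log2 scale. That is not small beside their standard deviations, 0.61 for the courses and 0.22 for the direct arrays, and their correlation across genes was 0.30.

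Of the genes named for low P-factor ratios or for lower values with P-factor than with M-factor, SPBC1289.14, SPAC4H3.08 (-2.50 at 4 h and -1.97 at 6 h) and wwm2 were over 4-fold higher in untreated M than P cells. SPBC1289.14 had 0.35 after 6 h and 2.78 in untreated cells, SPAC4H3.08 had 0.82 and 2.49, and wwm2 had 1.6 and 2.14. Each was less in excess in M cells after 6 h than before. The untreated M cell RNA is the numerator of the untreated ratio and the denominator of every P-factor ratio, so an excess in that 1 RNA enters both, and its part in these values was not tested.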

How the data were processed

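Arrays of PCR products, mostly 2 spots per gene, were scanned by the authors, quantified with Imagene 4.2 and normalised by lowess in GeneSpring. The authors deposited log ratios of treated over 0 h RNA without intensities: natural log values for the P-factor, M-factor 6 h and M over P arrays, and log2 values for M-factor 2 and 4 h. The bases are not stated. With the bases used here the study's own table was met within 2% for 121 of 155 P-factor means (13 with the next best bases), 152 of 155 M-factor means (13) and 155 of 155 untreated M over P ratios (52); the base of the 6 h M over P array, natural log, is likely, not settled. Signal over background is unknown, so the number of arrays limits the precision.

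Natural logs were converted to log2. Of 11520 spots, 9522 had 1 symbol, 134 several and 1864 none; symbols were updated by gene number (9474), synonym (44) or kept (4). Spots of a gene were averaged; spots at the floor were taken as missing. The study's 2-fold threshold was applied to the 4 and 6 h arrays; the study asks for it at 2 h too. limma 3.58.1 in R 4.3.3 gave lmFit and eBayes tests (residual degrees of freedom 2, Benjamini-Hochberg over all genes). Python 3.11.15, numpy 2.4.6, pandas 2.3.3 and matplotlib 3.10.9 did the rest. On data simulated for P-factor 4 and 6 h against untreated cells (4495 genes), limma called 53 of 100 genes changed 2-fold, 86 of 100 changed 4-fold and 8 of 4295 unchanged ones. Errors were drawn independently for each array, with spreads shuffled across genes, so a spread that grows with the response was not simulated. Changed genes were a far smaller share than was called in the data, and no M-factor change was added. An error shared through the 0 h RNA was not simulated, so these counts leave it out.

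The members, lists and tests were chosen with earlier results of these data known. Named were the 10 highest and 10 lowest means past 2-fold, up to 4 members per list, up to 8 genes per time class, the 10 largest pheromone differences each way, genes the paper names and the mutated genes. SPCC306.11, adg3, agn1, arg5, atf21, atg8, bqt2, byr1, byr2, cdc12, cdc15, cdc18, cdt1, chr4, dlc1, dli1, gap1, gpa1, hop1, klp2, kms1, mei3, pat1, prm1, ras1, rec6, rec7, rec8, rec15, sec18, taz1, tna1, ura4 and zym1 were named after their values were seen. Alternatives changed the threshold, centring, scale, spots, log base, fit and arrays; those of the log base and scale in limma and the late test were added after the data were seen. Putative upstream sites come from the study's supplementary list.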

Additional observations from a re-analysis of the deposited data

Results flagged for a closer look

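The response differed between P-factor and M-factor at 4 and 6 h for 49 genes by the test of the difference itself. As P-factor minus M-factor on the log2 scale, the largest positive differences were 7.58 for sxa2, 5.17 for mam2, 2.60 for sqs2, 2.54 for htr11, 2.28 for mam1, 2.07 for SPBP8B7.31, 1.98 for alb1, 1.94 for SPBC215.06c, 1.87 for shg1 and 1.84 for cwp1. For sqs2, SPBP8B7.31, alb1 and SPBC215.06c the P-factor means lay between -0.89 and 0.13 and the M-factor means between -3.49 and -1.81. The M-factor spots of sqs2 read -0.65 and -6.85 at 4 h and -5.14 and -1.32 at 6 h, so its M-factor mean rests on spots far apart. The largest negative differences were -4.58 for hmg1, -4.53 for SPAC1565.03, -3.72 for csr103, -3.30 for rsm1, -3.02 for SPBC1289.14, -2.65 for map2, -2.57 for mug37, -2.52 for ght4, -2.38 for SPBPJ4664.02 and -2.25 for SPAC4H3.08. ght4, a hexose transporter gene, had -0.15 and -0.26 with P-factor against 2.47 and 2.17 with M-factor, and SPBPJ4664.02 had -0.11 and -0.49 against 2.07 and 2.08.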

How the results depend on the processing

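Among the genes past 2-fold on both arrays, the 197 higher became 528 at 1.5-fold, 91 at 3-fold and 105 with the values read as log2, and the 186 lower became 570, 46 and 58. Asking every spot to pass 2-fold gave 102 lower genes and asking for 2-fold also at 2 h gave 96. A single array gave 262 to 326 higher and 239 to 332 lower. The 709 genes that rose by limma and the 703 that fell became 1068 and 1136 in a fit to the P-factor arrays alone, 138 and 83 in a test of changes beyond 1.5-fold, and 259 and 187 with values read as log2. The one-sample t-test on the 2 P-factor arrays gave 0 and 0 after adjustment, and 83 each at an unadjusted p of at most 0.01. Leaving out 1 P-factor array gave 80 to 128 that rose and 32 to 65 that fell. The 49 differences between the pheromones became 462 with the time point as a replicate block and 5 to 1147 with 1 array left out. With that block 860 genes rose and 901 fell; the labels give no sign that arrays of equal time share more than the time. Genes with a peak or trough at 4 h numbered 34 with 1.5-fold in place of 2-fold and 37 by the mean of the spots, against 8; those still rising 10 and 2, against 1; those still falling 5 and 5, against 1. Centring, a common scale, keeping the floor spots and fitting all 6 course arrays moved none of the counts of genes raised or lowered by over 1.5 times. Of the named genes 80 lost their limma call when the 4 h array was left out and 61 when the 6 h array was, and none reversed. The 2 scale and base alternatives of the limma counts and the late test were chosen after seeing the data. No intensities were given, so the depth behind a ratio is unknown; 38 of 52 list counts moved by over 1.5 times when the 4 h array was left out, and as many when the 6 h array was.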
